A study of Mus musculus with 73 samples.

Results

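The combinations described here are pairs of enhancers that were placed next to each other on opposite strands in a reporter plasmid. They are the enhancer-enhancer combinations with 1 fragment on the plus strand and the other on the minus strand and an activity above 0 in every replicate. There were 34495 of them, out of 110180 combinations in the whole series and 69096 enhancer-enhancer combinations above 0, of which 34601 had both fragments on the same strand. Of the opposite-strand combinations, 16067 were plus-minus, with the fragment in position 1 on the plus strand and that in position 2 on the minus strand, and 18428 were minus-plus. A further 62 opposite-strand combinations were at 0 in at least 1 replicate and have no log2 value. For 13969 ordered pairs of fragments both arrangements were measured in the same library, which used 27938 of the combinations and left 6557 without a counterpart.

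The assay was a massively parallel reporter assay. Each plasmid carries a promoter and a GFP reporter with a transcribed barcode, followed by a polyadenylation signal. Downstream of that signal lies an enhancer in position 1, followed by an enhancer in position 2. There were 8 libraries, 1 for each of the promoters of *Sox2*, *Klf2*, *Otx2*, *Fgf5*, *Lefty1*, *Nanog*, *Tbx3* and *Ap1m1*, of which the last is a housekeeping gene and the others are developmental genes. All libraries were transfected transiently into the same untreated mouse embryonic stem cell line, E14tg2a, grown in 2i and LIF medium, in 3 biological replicates on different days, and collected after 24 hours. Activity is the cDNA to pDNA ratio of the barcodes of a combination, so that all values concern episomal plasmids in 1 cell line.

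Enhancers are DNA elements that bind transcription factors and raise transcription from a promoter at a distance. They are classically described as acting in either orientation, although a fragment may also carry features that are read on 1 strand, such as promoters of its own, splice sites and polyadenylation signals. Whether such features act here, where fragments lie downstream of the polyadenylation signal of the reporter, was not tested. The fragments come from loci around genes with roles in pluripotent cells, among them *Sox2*, *Pou5f1*, *Nanog* and *Klf2*, which encode transcription factors of the pluripotency network, and *Nodal* and *Lefty1*, which encode a signalling ligand and an antagonist of that ligand. Plus-minus and minus-plus are the convergent and divergent arrangements of such a pair, but the sources used here do not state which is which, and the strand names are kept.

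Each fragment was amplified with a primer at either end, and turning a fragment exchanges these ends relative to the reporter. The primers of 5 fragments are shown because these fragments carry strong orientation differences or are in the leading pairs described below. Coordinates are those of the selected windows of 450 bp in mm10, and since the primers lie within the ends of the windows, the amplified fragments are somewhat shorter. Pou5f1_E084 lies at chr17:35509279-35509728, Pou5f1_E080 at chr17:35502739-35503188, Otx2_E108 at chr14:48652530-48652979, Otx2_E109 at chr14:48654012-48654461 and Klf2_E061 at chr8:72333998-72334447. In the RefSeq annotation of GRCm38, Pou5f1_E084 overlaps the body of *Pou5f1*, Pou5f1_E080 overlaps the long non-coding RNA gene *Gm32362*, and the other fragments lie outside genes. The primers are written 5′ to 3′ from the primer list of the study, without capitals since no part of them was singled out.
Pou5f1_E084 forward: gattagacgcttgtagcttgaactgtc
Pou5f1_E084 reverse: ggagagagcctgattgattagcaaatg
Pou5f1_E080 forward: tatatgtgtgtccatgtaactgcagatg
Pou5f1_E080 reverse: aaattcgttaacttgccacaaaccac
Otx2_E108 forward: gctaggataatgcgcaaattcatgaag
Otx2_E108 reverse: aaatgtgttgatagaggagcggattac
Otx2_E109 forward: tttacaaacgccagttcaagtcacatg
Otx2_E109 reverse: catctgcatacttaaatctgcgtccag
Klf2_E061 forward: atgggaagctttgtgcatagtataagc
Klf2_E061 reverse: ctgtctttgtcatgtcaactgcactag

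The number of opposite-strand combinations per library ranged from 3526 for *Fgf5* to 4883 for *Lefty1*, and minus-plus combinations outnumbered plus-minus ones in all 8 libraries. Of the 62 combinations at 0, 59 were in the *Fgf5* library, which also had the fewest control-control combinations above 0, 23 against 219 to 477 in the other libraries. The table gives neither barcode numbers nor read counts, and the depth of a single activity is therefore unknown above the minimum of barcodes and pDNA counts that the authors required. Pairs of a fragment with itself were only measured on opposite strands. All 21 such combinations were opposite-strand, and each of the 4 fragments concerned had 1 arrangement only. Pou5f1_E077 and Pou5f1_E078 had 5 and 6 plus-minus combinations, and Fgf5_E040 and Sox2_E178 had 6 and 4 minus-plus combinations. Among pairs of different but overlapping fragments, 158 of 325 combinations were opposite-strand. In control-control combinations 96 of 2508 were opposite-strand, against 18862 of 38085 enhancer-control combinations, so that the controls give almost no background for this arrangement.

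The first question was whether one arrangement is more active than the other. Both arrangements activated the promoters to a similar degree in each library. The boost index is the log2 of the activity over the median of the control-control combinations of the library. The median boost index of plus-minus combinations was 0.74 for *Ap1m1*, 1.41 for *Klf2*, 1.44 for *Otx2*, 1.65 for *Nanog*, 2.43 for *Fgf5*, 3.12 for *Tbx3*, 3.35 for *Lefty1* and 3.46 for *Sox2*. For minus-plus combinations it was 0.76, 1.39, 1.47, 1.63, 2.31, 3.08, 3.29 and 3.31 in the same order of promoters.

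Within matched pairs, the median log2 difference of plus-minus over minus-plus was small in each library. It was -0.029 for *Fgf5* (SD over replicates 0.0070, n = 3), -0.023 for *Otx2* (SD 0.0038), -0.011 for *Ap1m1* (SD 0.0032), 0.0011 for *Nanog* (SD 0.016), 0.0049 for *Klf2* (SD 0.0013), 0.0075 for *Tbx3* (SD 0.010), 0.018 for *Lefty1* (SD 0.022) and 0.023 for *Sox2* (SD 0.013). Each value is the median over pairs of the mean over replicates, whereas its SD is that of the medians of single replicates. A value can therefore lie outside its replicates. This was so for *Fgf5* (replicates -0.018, -0.014 and -0.028) and *Klf2* (replicates 0.0092, 0.012 and 0.011). Of the libraries, 5 had a median above 0 and 3 below. The mean over the 8 libraries was -0.0010 with a 95% interval from -0.017 to 0.015, and did not differ from 0 beyond the spread between libraries (exact two-sided sign-flip permutation test, p = 0.883, and 0.883 after Benjamini-Hochberg adjustment over 3 single-value tests). Plus-minus was the higher arrangement in 6996 of 13969 matched pairs (50.1%). With means in place of medians the difference over libraries was 0.021 (exact permutation test, p = 0.031 before adjustment), and the mean exceeded the median in all 8 libraries.

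Opposite-strand arrangements were next set against same-strand ones. For 12569 sets all 4 arrangements were measured in the same library. The mean of both opposite-strand activities minus the mean of both same-strand activities had a median between -0.0051 for *Nanog* and 0.012 for *Sox2*. Over the 8 libraries it was 0.0024 with a 95% interval from -0.0023 to 0.0072 (exact two-sided sign-flip permutation test, p = 0.266, adjusted p = 0.539). Single sets did deviate, with a median absolute value of 0.080 for *Ap1m1* to 0.18 for *Fgf5*, while the median SD between replicates of the same quantity was 0.094 to 0.25. Without replicate 3 the mean over libraries was 0.0040 (exact permutation test, p = 0.039 before adjustment).

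Although no arrangement was favoured on average, single pairs differed widely. The median absolute difference between both arrangements ranged from 0.26 for *Otx2*, a 1.20-fold difference, to 0.38 for *Lefty1*, a 1.30-fold difference. The share of pairs that differed by more than 1 on the log2 scale was lowest for *Ap1m1*, at 2.58%, and highest for *Fgf5*, at 12.8%. The median SD of the difference over replicates was 0.14 to 0.19 in 7 libraries and 0.39 in *Fgf5*. In every library the pairs in the lowest quartile of activity had the larger median absolute differences, from 0.33 to 0.51 against 0.18 to 0.32 in the highest quartile, and also the larger median replicate SD, from 0.22 to 0.68 against 0.10 to 0.25. Pearson's R of the differences between replicates was 0.62 to 0.83 in 7 libraries and 0.24 to 0.45 in *Fgf5*, over pairs that share fragments and plasmids.

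The spread was compared with that of same-strand pairs. In the sets of 4, the median absolute difference between plus-minus and minus-plus exceeded that between plus-plus and minus-minus by 0.0046 on average over the 8 libraries, with a 95% interval from -0.0054 to 0.015 (exact two-sided sign-flip permutation test, p = 0.359, adjusted p = 0.539). The SD in place of the median absolute difference gave 0.012 (exact permutation test, p = 0.016 before adjustment).

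At a 5% FDR, 4865 of 13969 matched pairs were called by limma (34.8%), of which 2448 were higher in plus-minus and 2417 in minus-plus. The called share was 33.7% for plus-plus over minus-minus pairs and 32.8% over all matched rows of the table, so the share in opposite-strand pairs was near this background. It was 10.0% for *Fgf5* and 32.3% to 44.2% for the others. These calls lay close to the threshold and changed with the replicate left out. Without replicate 1 or without replicate 2, 0 pairs passed limma at a 5% FDR, with smallest adjusted p of 0.0545 and 0.0501, while 5062 and 5190 pairs were below 0.05 before adjustment. Without replicate 3, which leaves as many replicates, 3789 pairs were called. Replicates share their plasmids and barcodes, so this test leaves out differences between plasmids.

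The pairs at both extremes were often made of the same fragments. In each library they were chosen by size among called pairs with the same sign in all 3 replicates. Their adjusted p therefore do not test them anew. Among the pairs matched in all 8 libraries, that of Klf2_E061 in position 1 and Sox2_E181 in position 2 had the highest mean difference, with a range from 1.06 to 3.20. In the *Lefty1* library its activity was 1.58, 1.48 and 1.49 in the 3 replicates as plus-minus and 0.220, 0.132 and 0.153 as minus-plus. The arrangements differed 9.20-fold (log2 difference 3.20, SE 0.19, limma adjusted p = 0.0078). The same pair led in the *Nanog* library, with a difference of 2.60 (SE 0.19), and in the *Tbx3* library, with 2.80 (SE 0.067), both with a limma adjusted p of 0.0078. The smallest difference of this pair was with *Ap1m1*, where plus-minus activities of 1.33, 1.23 and 1.15 stood against 0.689, 0.453 and 0.667.

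Other pairs with higher plus-minus activity contained Pou5f1_E084 in position 1. With Fgf5_E040 in position 2 it led for *Klf2*, where activities of 0.745, 0.796 and 0.846 as plus-minus stood against 0.177, 0.267 and 0.180 as minus-plus (log2 difference 1.96, SE 0.20, limma adjusted p = 0.0082). The same pair led for *Ap1m1*, with a difference of 1.59 (SE 0.28, limma adjusted p = 0.017). With Klf2_E061 in position 2, Pou5f1_E084 led for *Sox2*, with activities of 2.06, 2.00 and 2.71 against 0.469, 0.273 and 0.465 (log2 difference 2.52, SE 0.21, limma adjusted p = 0.0078). For *Otx2* the leading pair was Otx2_E110 with Nanog_E065, with a difference of 2.58 (SE 0.34), and for *Fgf5* it was Sox2_E181 with Otx2_E109, with a difference of 2.82 (SE 0.26).

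Pairs with higher minus-plus activity often held Otx2_E109 in position 1 or an *Otx2* fragment in position 2. Otx2_E109 with Otx2_E112 was lowest for *Lefty1*, with activities of 0.113, 0.0913 and 0.0769 as plus-minus against 0.391, 0.381 and 0.418 as minus-plus (log2 difference -2.10, SE 0.19, limma adjusted p = 0.0082). The same pair was lowest for *Nanog*, at -1.74 (SE 0.13). Otx2_E109 with Nodal_E157 was lowest for *Sox2*, at -3.93, but with an SE of 0.98, since its plus-minus activities were 0.0905, 0.0286 and 0.0107. Nanog_E090 with Otx2_E111 was lowest for *Klf2* at -1.83, Pou5f1_E076 with Otx2_E114 for *Fgf5* at -2.52, Lefty1_E085 with Nodal_E158 for *Otx2* at -1.66, Pou5f1_E081 with Klf2_E061 for *Ap1m1* at -1.40 and Pou5f1_E083 with Pou5f1_E078 for *Tbx3* at -2.42. Of the 41 matched pairs with a difference over 2 in size, 32 were called. Among the 41, 31 were higher as plus-minus, and 15 contained Sox2_E181 in position 2.

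Going from plus-minus to minus-plus turns both fragments. If each fragment had its own orientation effect, the difference of a pair would be the effect of the fragment in position 1 minus that of the fragment in position 2. Such an additive fit accounted for an adjusted R2 of 0.34 for *Fgf5*, 0.45 for *Sox2* and 0.59 to 0.69 for the other libraries. The fragment in position 2 alone gave 0.21 to 0.56 and that in position 1 alone 0.10 to 0.21, and position 2 was higher in 8 of 8 libraries. Enhancer-control combinations, which are other plasmids of the same libraries, allow the same difference to be predicted from each enhancer beside controls. Pearson's R between predicted and measured differences was 0.43 for *Fgf5* over 218 pairs and 0.62 to 0.77 in the other libraries over 1081 to 1781 pairs, which share fragments. The predicted sign was that measured in 3763 of 4128 called pairs (91.2%) and in 4585 of 6643 pairs that were not called (69.0%).

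The effect of each enhancer in each position was therefore the activity with its own plus strand over that with its own minus strand. The partner was always on the other strand and was thus turned as well. The median over at least 5 partners was taken, which also takes in any orientation effect of the partners. The library is the unit here, since libraries have separate plasmids and barcodes. Of 108 enhancer-position combinations with a value in at least 6 libraries, 67 were called by limma at a 5% FDR (62%). In position 1, 14 of 51 were higher on the plus strand and 16 on the minus strand, and in position 2 these were 18 and 19 of 57. The median absolute effect was 0.12 in position 1 and 0.16 in position 2. Of the 57 enhancers tested, 46 were called in at least 1 position.

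The strongest effect was that of Sox2_E181 in position 2, which was less active on its plus strand in all 8 libraries. The median activity over partners was 0.602 on the plus and 1.05 on the minus strand for *Ap1m1*, 0.283 and 0.886 for *Lefty1*, 0.367 and 1.05 for *Tbx3* and 0.698 and 1.86 for *Sox2*. The effect ranged from -1.33 to -0.82 over libraries, with a median of -1.02 and a mean of -1.06 (SE 0.058, limma adjusted p = 2.0e-07), a 2.08-fold difference. It had this direction in 272 of 276 pairs (98.6%), with 48 partners. Such shares, here and below, count the pairs that gave the effect. They describe it and do not test it. Beside controls, the mean effect was -1.20 over 7 libraries, and in same-strand pairs it was -1.03.

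Other enhancers in position 2 were also more active on the minus strand. Pou5f1_E080 had a mean effect of -0.60 (SE 0.044, range -0.84 to -0.41). Lefty1_E093, which overlaps the long non-coding RNA gene *Gm39715*, had -0.56 (SE 0.041), Fgf5_E036, which overlaps *Fgf5*, had -0.56 (SE 0.038), and Nodal_E156 had -0.47 (SE 0.048). All 4 were below 0 in 8 of 8 libraries, with limma adjusted p between 8.7e-07 and 8.7e-06. Between 92.5% and 95.5% of their pairs went the same way.

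Of the 5 enhancers of position 2 that were most active on the plus strand, 4 came from the locus of *Otx2*, which encodes a homeobox transcription factor, and Otx2_E111 and Otx2_E112 among them overlap in the genome. Otx2_E108 had a mean effect of 0.61 (SE 0.047, range 0.42 to 0.83, limma adjusted p = 1.3e-06). Its median activity was 1.38 on the plus and 0.660 on the minus strand for *Nanog*, and 1.34 and 0.794 for *Fgf5*. Otx2_E112 had 0.60 (SE 0.053), Otx2_E114, which overlaps *Otx2*, had 0.46 (SE 0.038), Nanog_E064 had 0.41 (SE 0.039) and Otx2_E111 had 0.40 (SE 0.055). Each was above 0 in 8 of 8 libraries. Other fragments of the locus did not share this direction in position 2, where Otx2_E109 was lower on the plus strand (-0.16, below 0 in 8 of 8 libraries), and Otx2_E110 (0.045) and Otx2_E115 (0.063) were not called.

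In position 1, Pou5f1_E084 had the strongest effect and was more active on the plus strand. Its median activity over partners was 0.729 on the plus and 0.502 on the minus strand for *Ap1m1*, 0.775 and 0.424 for *Lefty1*, and 1.67 and 0.975 for *Sox2*. The effect ranged from 0.43 to 1.00 over 8 libraries, with a mean of 0.68 (SE 0.054, limma adjusted p = 1.4e-06). Nanog_E090 followed with 0.33 (SE 0.062), Sox2_E181 with 0.30 (SE 0.063), Klf2_E058 with 0.23 (SE 0.035) and Nodal_E162 with 0.23 (SE 0.035). Of those more active on the minus strand, Otx2_E109 had -0.55 (SE 0.047, 7 libraries), Nodal_E160 -0.49 (SE 0.077), Nodal_E156 -0.34 (SE 0.096, 6 libraries), Pou5f1_E080 -0.33 (SE 0.030) and Tbx3_E207 -0.31 (SE 0.029). Nodal_E156 was below 0 in 5 of 6 libraries, and the others had 1 direction in all libraries measured. The call of Nodal_E156 was lost, at the same value, in an exact sign-flip permutation test (adjusted p = 0.090). Single pairs were less uniform than in position 2. The direction was shared by 87% of the pairs of Pou5f1_E084 and by 68% to 82% of those of the other enhancers named here. Nanog_E090 and Nodal_E156 had as few as 6 partners in a library. Some of these fragments were measured unevenly on their strands in position 1. The plus strand held 19.1% of the opposite-strand combinations of Nodal_E156, 21.9% for Nodal_E160, 25.2% for Nanog_E090 and 25.7% for Otx2_E109. For the other enhancers named here it held 49.1% to 53.7%. The effects use matched pairs only.

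In all, 32 of the called enhancer-position combinations were higher on the plus and 35 on the minus strand. By locus, 5 of 8 combinations of *Klf2* were called and all 5 were higher on the plus strand, while of the 11 called of 18 for *Pou5f1*, 10 were higher on the minus strand. Of the 7 called of 13 for *Nanog*, 6 were higher on the plus strand, as were 6 of the 8 called of 13 for *Otx2*. Of the 6 called of 14 for *Lefty1*, 5 were higher on the minus strand, as were 3 of the 4 called of 7 for *Fgf5* and 7 of the 11 called of 12 for *Nodal*. For *Sox2*, 6 of 11 were called, 3 in each direction, and for *Tbx3* 9 of 12 were called, 5 on the plus and 4 on the minus strand. A fragment counts separately in each position, and some fragments of a locus overlap, so these counts are not independent. No test between loci was made. The called share was 64.7% for fragments outside RefSeq genes, 59.1% for those overlapping protein-coding genes and 55.6% for those overlapping long non-coding RNA genes, against 62% in all.

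By strand name, the orientation effect of an enhancer differed between positions for 28 of 51 enhancers (limma at a 5% FDR on the difference between positions over libraries, 54.9%). The strand assignment of position 2 is not stated, so plus in both positions may not be the same physical orientation. Sox2_E181 had 0.30 in position 1 and -1.06 in position 2, a difference of 1.35 (SE 0.088, limma adjusted p = 1.8e-07). Pou5f1_E084 had 0.68 in position 1 and -0.0072 in position 2, a difference of 0.69 (SE 0.096), although its mean in position 2 was -0.48 beside controls. Lefty1_E093 had 0.033 and -0.56, while Otx2_E108, Otx2_E112 and Otx2_E111 had 0.13, 0.12 and 0.012 in position 1 and 0.61, 0.60 and 0.40 in position 2. Beside controls Otx2_E112 had 0.47 and 0.60 in both positions, a smaller gap than in opposite-strand pairs. Of 21 enhancers called in both positions, 18 had the same direction, and the exceptions were Sox2_E181, Lefty1_E087 and Tbx3_E209. Tbx3_E209 had -0.077 and 0.11 here and -0.29 and 0.34 beside controls. For Sox2_E181 in position 1 the mean beside controls was 0.085, with a range from -0.14 to 0.39, and for Lefty1_E087 in position 1 the mean was -0.20 in opposite-strand and 0.098 in same-strand pairs. Lefty1_E087 in position 2 had 0.14 here and -0.015 beside controls. Pearson's R between both positions was 0.35 over 51 enhancers.

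The effects were also measured with a control as the partner and with the partner on the same strand. Beside controls the control kept its strand, while in same-strand pairs the partner was turned along with the enhancer. An orientation effect of the partner therefore enters these settings differently. Across enhancers, Pearson's R between the effect in opposite-strand pairs and beside controls was 0.89 over 36 enhancers in position 1 and 0.95 over 48 in position 2, with the same sign for 36 and 44 of them. The 36 leave out Otx2_E109, Nodal_E160, Nodal_E156 and Nanog_E090, which had no value beside controls in position 1. Between opposite-strand and same-strand pairs it was 0.93 over 51 and 0.98 over 57, with the same sign for 40 and 51. These values share libraries and fragments but come from different plasmids. Single enhancers differed between these settings. Otx2_E112 in position 1 had 0.12 in opposite-strand pairs, 0.20 in same-strand pairs and 0.47 beside controls (range 0.34 to 0.66 over 7 libraries). Pou5f1_E084 in position 2 had -0.0072, -0.079 and -0.48, and was below 0 beside controls in all 7 libraries (range -1.01 to -0.061). The differences between these settings were not tested.

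Between promoters, the pattern of differences was similar but not equal. Pearson's R of the pair differences between libraries ranged from 0.43 for *Ap1m1* and *Fgf5*, over 1297 pairs, to 0.84 for *Lefty1* and *Tbx3*, over 1757 pairs. Of 1065 pairs matched in all 8 libraries, 249 were higher as plus-minus with every promoter and 258 as minus-plus with every promoter. The effect of the enhancer differed between libraries for 72 of 108 enhancer-position combinations (limma moderated F test at a 5% FDR, 66.7%), and for 44 without replicate 1. Sox2_E181 in position 2 averaged -1.30 over replicates for *Lefty1* (SD 0.22, n = 3), -1.25 for *Tbx3* (SD 0.059), -1.22 for *Nanog* (SD 0.12), -1.06 for *Otx2* (SD 0.12), -0.94 for *Klf2* (SD 0.088), -0.92 for *Fgf5* (SD 0.15), -0.81 for *Sox2* (SD 0.20) and -0.80 for *Ap1m1* (SD 0.10), in which *Nanog* and *Otx2*, and *Otx2* and *Klf2*, differed by slightly more than their SDs and the other neighbours by less than the larger of theirs. The F test takes its error from replicates, which share plasmids and partners. Libraries also differ in their measured partners. With only partners matched in all 8 libraries, 66 enhancer-position combinations were called, against 72. The plasmids and barcodes of a library cannot be told apart from its promoter.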

How the data were processed

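Activities were measured in 8 promoter libraries with 3 cDNA replicates each. Of 73 samples, 48 are from cDNA, 16 from pDNA and 9 from inverse PCR. The authors aligned inverse PCR reads with Bowtie2 2.3.4 and clustered barcodes with Starcode 1.1. The deposited activity is the cDNA to pDNA ratio of normalised barcode counts, which the authors averaged over barcodes after filters on barcodes and pDNA counts. Means of ratios weight strong barcodes more, and barcode numbers are not in the table, so no counting error is given. The pDNA is shared by the replicates of a library.

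Activities were log2 transformed without a pseudocount, and 491 combinations at 0 in any replicate were left out. Differences were calculated within a library and replicate, so that scaling of the library cancels. Single values were tested over libraries by exact sign-flip permutation, and pairs, enhancers and promoters with limma 3.58.1 in R 4.3.3 at a 5% FDR. The test between positions was added after the data were seen. Named are the 8 promoters, the 5 highest and 5 lowest called enhancers in each position and the highest and lowest called pair of each library. Other enhancers with values, such as Klf2_E061 and Lefty1_E087, were chosen after their values were seen. The members and lists were chosen with earlier results of these data known. The replicate numbers come from the labels and pair both arrangements, which were measured in the same sample. Calculations were tested on simulated data. Alternatives changed the averaging, replicates, libraries, partners, baseline and test. Fragment sequences and motifs were not analysed here. The primers of Sox2_E181 are not reported here.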

Additional observations from a re-analysis of the deposited data

Results flagged for a closer look

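For 17 of the 20 named enhancers in a position, the own plus over own minus effect in opposite-strand pairs differed between promoter libraries (limma moderated F test at a 5% FDR), against 72 of all 108 tested (66.7%) and 44 of all tested without replicate 1. The gap between the highest and the lowest library is given on the log2 scale. It rests on the mean over replicates of the median over partners, as the F test does, whereas the ranges over libraries given above are medians over partners of the mean over replicates, so that both differ. Libraries also differ in plasmids and partners. The F test takes its error from the 3 replicates alone, which share both, so the sampling of partners is left out. In position 1 the gap was 0.78 for Nodal_E160, from -0.80 for *Tbx3* to -0.028 for *Ap1m1* (adjusted p = 0.046). It was 0.70 for Nodal_E156, from -0.72 for *Sox2* to -0.025 for *Tbx3*. As the median over partners of the mean over replicates, this *Tbx3* value was 0.043. Partners per library numbered 8 to 19 for Nodal_E160, 6 to 13 for Nodal_E156, with 6 libraries, and 6 to 16 for Nanog_E090. Nanog_E090 had a gap of 0.54, with *Ap1m1* lowest and *Tbx3* highest. Sox2_E181 had a gap of 0.46, from 0.086 for *Nanog* to 0.55 for *Fgf5* (adjusted p = 4.7e-06). The gap was 0.35 for Pou5f1_E084, 0.28 for Klf2_E058, 0.19 for Nodal_E162 and 0.16 for Tbx3_E207.

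In position 2 the gap was 0.57 for Otx2_E108, from 0.32 for *Fgf5* to 0.89 for *Nanog* (adjusted p = 4.7e-05). Otx2_E111 had a gap of 0.50, from 0.081 for *Sox2* to 0.59 for *Ap1m1* (adjusted p = 5.6e-07). Otx2_E112 had a gap of 0.50, from 0.30 for *Sox2* to 0.80 for *Lefty1*. Sox2_E181 had a gap of 0.50, with *Lefty1* farthest from 0 and *Ap1m1* nearest. The gap was 0.44 for Otx2_E114, 0.39 for Pou5f1_E080, 0.29 for Nodal_E156, 0.28 for Fgf5_E036 and 0.27 for Nanog_E064.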

How the results depend on the processing

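The mean difference of plus-minus over minus-plus, -0.0010 over libraries, changed sign with means in place of medians (0.021). It also did so without *Fgf5* (0.0030), without *Ap1m1* (0.00040) and as the mean of the medians of single replicates (0.0021). Without 1 replicate it ranged from -0.0019 to 0.0027. For opposite-strand minus same-strand activity, leaving out 1 replicate gave -0.00030 to 0.0040, and the mean of the medians of single replicates gave 0.0020. The spread difference rose to 0.012 with the SD. The cause was not tested. Matched pairs called numbered 4865, 4088 without the pairing by replicate, 907 at a 1% FDR and 0 to 3789 without 1 replicate. Without replicate 1 or 2 the limma count was 0, with 5062 and 5190 pairs below 0.05 before adjustment. Enhancer-position calls numbered 60 to 73 under all alternatives, against 67. The alternatives tested 103 to 108 combinations and shared 58 to 67 calls with the main setting. Calls differing between promoters numbered 44 to 62 without 1 replicate, against 72. For the 20 named enhancers in a position, 216 of 217 alternative values kept direction and call, and Nodal_E156 in position 1 lost its call, with an unchanged value of -0.34, by the exact sign-flip permutation test (adjusted p = 0.090). Low activities and the *Fgf5* library limit precision, since their replicate spread is the largest and depth is unknown.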
